A study of Mus musculus with 14 samples.

Results

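Txk, the Tec family kinase gene of T cells, and 6 genes that act beside it just below the T cell receptor (Tec, Fyn, Zap70, Lat, Lcp2 and Plcg1) were followed across cultured mouse CD4 T cells. The 7 genes were taken by symbol from 22598 genes in the deposited count tables. Txk stood out through its day 14 difference between genotypes in these same libraries. Its values in every comparison that uses day 14 libraries are therefore given as a description with no test, and its day 7 genotype difference is tested. The other 6 genes are tested throughout.

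Naive CD4 T cells of C57BL/6J mice had been sorted from spleen, activated and grown towards Th2, the helper T cell type of allergic responses. The libraries labelled knockout carry a combined deletion of the Argonaute genes Ago1, Ago3 and Ago4 (Ago134, KO below). The wild-type (WT) libraries came from littermates. The 14 RNA-seq libraries were KO at day 7 (n = 4), WT at day 7 (n = 4), KO at day 14 (n = 3) and WT at day 14 (n = 3). All 4 groups shared the strain and the Th2 culture. The series text also gives the later time in a second way. Nothing in the labels tells separate animals or cultures apart within a group, so every p-value speaks of library-to-library spread, part or all of which may be technical.

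Engagement of the T cell receptor activates the Src family kinases Lck and Fyn, which phosphorylate receptor chains and so recruit Zap70. Zap70 phosphorylates the membrane adaptor Lat and the cytosolic adaptor SLP-76, the product of Lcp2, and on this platform a Tec family kinase switches on phospholipase C gamma 1, the product of Plcg1. Txk (also called Rlk) and Tec are Tec family kinases found in T cells, and Btk is the B and mast cell member.

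Total counts per library ran from 23326248 to 35803197, and 11591 genes entered the tests. Ago1 had 0 reads in every KO library of day 7 and 0 to 2 reads in those of day 14, against 128 to 141 in WT at day 7 and 67 to 100 in WT at day 14. Ago3 had reads in all libraries, at 1.98 ± 0.206 CPM in KO and 3.64 ± 0.789 CPM in WT at day 7 (CPM is a gene's reads scaled to an equal library size). Ago4 stood higher in KO, at 3.17 ± 0.323 CPM in KO and 0.617 ± 0.252 CPM in WT at day 7 with no overlap, and at 3.93 ± 1.34 CPM in KO and 1.46 ± 1.24 CPM in WT at day 14 with overlap. No source here states which exons of Ago3 and Ago4 were removed, so whether their reads bear on the label cannot be said. T cell markers (Cd3e, Cd3d, Cd3g, Cd4, Cd5 and Cd28) summed to 2197 to 4942 CPM in every library. A list of 7 Th2 genes summed to 550.2 to 1277 CPM, with Gata3 averaging 439 to 544 CPM by group. Of its cytokine genes, Il4 averaged 2.83 CPM in KO and 1.36 CPM in WT at day 7, and 9.7 and 8.02 CPM at day 14. Il5 had 0 reads in WT at day 7. Il13 had 0 reads in both genotypes at day 7 and at most 5 in any day 14 library. WT day 14 library 3 stood apart: without it, 2640 genes differed between genotypes at day 14, against 165 with it. The labels name no sequencing run, and runs were inferred from numbers in the names of the deposited tables. By these, all KO day 7 libraries shared 1 run with WT day 7 libraries 2 to 4 and WT day 14 library 2. The other libraries formed a second run, so for KO over time run and day cannot be told apart.

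Txk (ENSMUSG00000054892) lies on the minus strand of chromosome 5 (GRCm38, chr5:72695978-72752777). Its paralogue Tec (ENSMUSG00000029217, chr5:72755716-72868483) is its upstream neighbour on the same strand, and only 2939 bases separate the end of Tec from the start of Txk. Their start regions are shown because these adjacent kinase genes had unlike values over time. Each runs from 250 bases before to 50 bases after a RefSeq start (GRCm38.p6, minus strand, written 5′ to 3′ along the gene). Capitals mark matches to the letters searched on both strands, which were GGGCGG for a GC box, TATAAA for a TATA box, AGATAA for a GATA factor site, AGGAAG for an ETS factor site and CACGTG for an E-box. No marked matches overlap.
Txk start 1, chr5:72752728-72753027: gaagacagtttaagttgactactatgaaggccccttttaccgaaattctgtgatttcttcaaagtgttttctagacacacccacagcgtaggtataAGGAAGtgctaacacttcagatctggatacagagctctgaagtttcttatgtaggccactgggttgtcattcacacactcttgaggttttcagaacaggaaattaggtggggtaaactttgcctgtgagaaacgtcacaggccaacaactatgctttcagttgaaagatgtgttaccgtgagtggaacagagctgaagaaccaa
Txk start 2, chr5:72736553-72736852: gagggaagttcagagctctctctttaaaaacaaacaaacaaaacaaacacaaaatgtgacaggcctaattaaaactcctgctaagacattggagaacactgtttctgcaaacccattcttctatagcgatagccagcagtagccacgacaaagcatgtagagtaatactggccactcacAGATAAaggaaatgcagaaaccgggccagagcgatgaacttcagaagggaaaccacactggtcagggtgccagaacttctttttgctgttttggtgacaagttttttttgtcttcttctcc
Tec start, chr5:72868399-72868698: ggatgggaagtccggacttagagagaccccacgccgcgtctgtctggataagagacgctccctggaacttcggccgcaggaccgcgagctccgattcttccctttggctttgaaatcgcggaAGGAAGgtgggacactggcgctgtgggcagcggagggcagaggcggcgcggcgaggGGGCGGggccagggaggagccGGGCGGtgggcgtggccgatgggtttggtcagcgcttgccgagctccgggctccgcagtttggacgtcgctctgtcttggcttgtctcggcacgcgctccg

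Both Txk windows were 42.7% G or C with 4 CpG dinucleotides, and the Tec window was 67.7% G or C with 33. The median of 32851 mouse promoter windows of the same length was 52.7% with 7 CpG. The Tec window held 2 GC boxes, a match found in 35.7% of all windows, and 1 ETS match (35.4% of windows). The first Txk window held 1 ETS match and the second 1 GATA match (11.2% of windows). These are letter matches only.

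Txk was the member whose level moved most. At day 14 it stood at 17.2, 18.9 and 12.8 CPM in KO libraries and at 2.31, 2.24 and 2.63 CPM in WT libraries, which is 583, 572 and 426 reads against 62, 67 and 85. Every KO library was above every WT library, as for 9.71% of tested genes, and the WT values lay close together. The means were 16.3 ± 3.1 and 2.39 ± 0.208 CPM (SD, n = 3 each), a log2 fold change of 2.77 ± 0.28 (SE). Within the second sequencing run, without WT day 14 library 2, it was 2.72. It ran from 2.54 to 2.91 over all alternatives.

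At day 7 Txk stood at 44.3, 45.9, 34.2 and 27.5 CPM in KO libraries and at 58.7, 51.4, 41.6 and 66.2 CPM in WT libraries. The groups overlapped, with the KO mean lower (38.0 ± 8.7 and 54.5 ± 10.5 CPM, SD, n = 4 each). The log2 fold change was -0.52 ± 0.22 (edgeR adjusted p = 0.181, Benjamini-Hochberg over all tested genes), and -0.48 within the first run (edgeR adjusted p = 0.382). It did not pass the threshold of 0.05.

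Read over time, Txk was lower at day 14 than at day 7 in both genotypes, and by unequal amounts. The day 14 level was 2.33-fold lower than that of day 7 in KO cultures (log2 fold change -1.22 ± 0.25) and 22.7-fold lower in WT cultures (-4.51 ± 0.29). The genotype difference moved by 3.29 ± 0.35 on the log2 scale between the days. The CD8 T cell markers Cd8a and Cd8b1 summed to 10.5 to 21.0 CPM in KO and 6.67 to 10.2 CPM in WT at day 7. At day 14 they summed to 11.4 to 20.6 CPM in KO and 6.32 to 7.92 CPM in WT. Nearly all of this was Cd8b1, which lay higher in KO without overlap on both days, as 9.27% and 9.71% of tested genes did. It was called on neither day (log2 fold changes 0.90 and 0.98). Cd8a had at most 10 reads in any library and did not enter the tests. The part of the CD8 markers in the Txk values was not tested. Bulk libraries cannot tell fewer Txk-positive cells from less Txk RNA per cell.

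**Figure D1:**
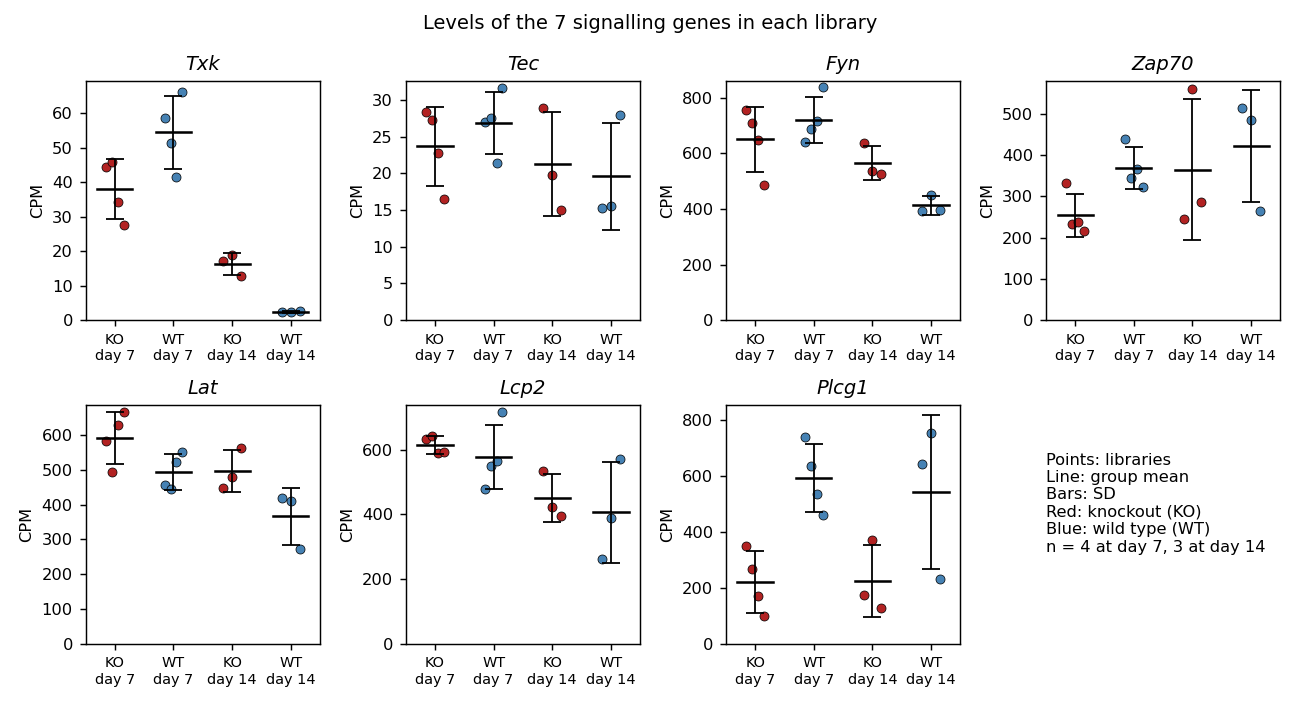
CPM of the 7 genes (y axes, linear, from 0) in each library (points) of the 4 groups, KO in red and WT in blue, with group mean (line) and SD (bars). Txk was near 2.39 CPM in WT at day 14 and at 12.8 to 18.9 CPM in KO at day 14, while the day 14 groups of Tec overlapped.

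Tec, next to Txk on the chromosome, was called by edgeR in no comparison. At day 14 it stood at 28.9, 19.8 and 15.0 CPM in KO and at 15.3, 15.5 and 28.0 CPM in WT libraries, so the groups overlapped (0.12 ± 0.31, edgeR adjusted p = 0.864). The 95% interval of that log2 difference ran from -0.56 to 0.79. At day 7 Tec stood at 28.4, 27.2, 22.7 and 16.5 CPM in KO and at 27.0, 27.5, 21.4 and 31.6 CPM in WT libraries. It averaged 23.7 ± 5.37 CPM in KO and 26.9 ± 4.18 CPM in WT (SD, n = 4 each; -0.18 ± 0.27, edgeR adjusted p = 0.712). Over time its log2 fold change was -0.16 ± 0.29 in KO and -0.45 ± 0.30 in WT, neither past the threshold (edgeR adjusted p = 0.797 and 0.315).

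The ratio of the 2 kinase genes inside each library takes library size out. At day 7 the log2 ratio of Txk to Tec was 0.64, 0.76, 0.59 and 0.73 in KO and 1.12, 0.91, 0.96 and 1.07 in WT libraries. Every KO ratio lay below every WT ratio, by a mean of -0.33. The exact two-sided permutation test gave an unadjusted p = 0.0286, the smallest that 4 against 4 allows. Such separation was common at day 7. Among single tested genes, 12.9% lay wholly lower and 9.27% wholly higher in KO, and 23.4% had an unadjusted edgeR p under 0.05. At day 14, as a description, the ratio was -0.75, -0.07 and -0.22 in KO and -2.72, -2.79 and -3.4 in WT libraries, a difference of 2.62 in the other direction.

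None of the 4 nearest tested genes around the pair was called by genotype on either day. Few genes were called at all, 0.0949% of tested genes at day 7 and 1.42% at day 14. The nearest tested genes were Cnga1, a cyclic nucleotide-gated channel gene, and Nipal1 downstream of Txk, and Slain2, a microtubule-associated gene, and Fryl upstream of Tec. At day 7 their genotype log2 fold changes were -0.12 ± 0.61, -0.11 ± 0.48, -0.32 ± 0.20 and -0.88 ± 0.26 (edgeR adjusted p = 0.927, 0.906, 0.345 and 0.154). Slain2 and Fryl lay lower in KO without overlap there, as 12.9% of tested genes did. At day 14 the 4 values were 0.16 ± 0.71, -0.15 ± 0.55, -0.08 ± 0.23 and -0.59 ± 0.30, none past the threshold (edgeR adjusted p = 0.919, 0.904, 0.865 and 0.262). Over time Slain2 fell in KO (-1.07 ± 0.22, edgeR adjusted p = 0.00477) and in WT (-1.30 ± 0.23, edgeR adjusted p = 0.000982). Fitting the run as a further term gave -1.18 in KO, no longer called (edgeR adjusted p = 0.0771). Fryl fell in WT (-1.12 ± 0.28, edgeR adjusted p = 0.012), a call lost without WT day 14 library 2 (edgeR adjusted p = 0.0505).

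**Figure D2:**
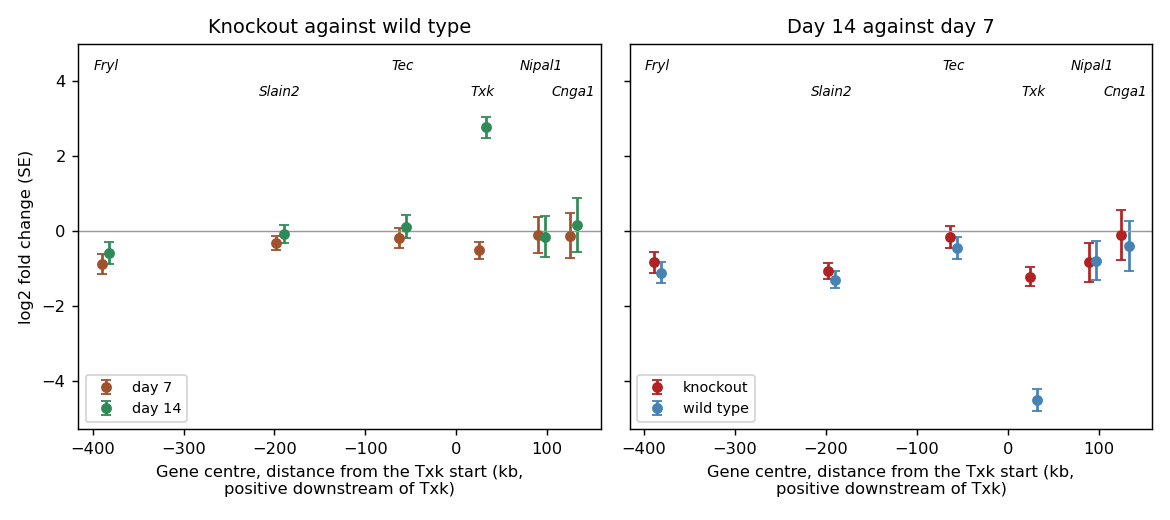
Log2 fold changes with SE of Txk, Tec and 4 neighbours against the distance of each gene's centre from the Txk start in kb, for genotype at each day (left) and day 14 against day 7 in each genotype (right). At day 14 Txk is at 2.77 while its neighbour Tec is at 0.12.

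Fyn (ENSMUSG00000019843, chr10:39368855-39565381), a Src family kinase that works beside Lck, was the 1 gene called by edgeR among the 6 signalling genes other than Txk. In WT cultures it stood at 392, 451 and 396 CPM at day 14 and at 641, 687, 716 and 838 CPM at day 7. The day 14 libraries lay wholly below those of day 7, as for 13.8% of tested genes. Fyn fell by 0.80 ± 0.17 on the log2 scale (edgeR adjusted p = 0.00452), and it stayed called under all 25 alternatives (largest adjusted p 0.0199). In KO cultures Fyn stood at 637, 536 and 525 CPM at day 14 and at 755, 710.5, 648 and 488 CPM at day 7 (-0.20 ± 0.17, edgeR adjusted p = 0.518). The difference between these 2 time courses was 0.60 ± 0.24 and did not pass the test (edgeR adjusted p = 0.538).

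At day 14 the 3 KO values of Fyn lay above the 3 WT values, with means of 566 ± 61.7 and 413 ± 32.6 CPM (0.45 ± 0.18, edgeR adjusted p = 0.178). KO groups wholly above WT were found for 9.71% of all tested genes there. At day 7 Fyn averaged 651 ± 117 CPM in KO and 720.2 ± 84.3 CPM in WT (-0.15 ± 0.16, edgeR adjusted p = 0.591).

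Zap70 (ENSMUSG00000026117, chr1:36761798-36782818), the kinase recruited to phosphorylated receptor chains, stood at 331, 232, 237 and 215 CPM in KO and at 439, 344, 367 and 323 CPM in WT libraries at day 7. One KO library lay within the WT range (-0.54 ± 0.27, edgeR adjusted p = 0.24). At day 14 it scattered widely within both genotypes, at 246, 561 and 286 CPM in KO and 515, 485 and 265 CPM in WT (-0.21 ± 0.31, edgeR adjusted p = 0.729). Its change over time was 0.52 ± 0.29 in KO and 0.20 ± 0.29 in WT (edgeR adjusted p = 0.277 and 0.682).

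The adaptors came next. Lat (ENSMUSG00000030742, chr7:126363824-126369570), the membrane scaffold, stood at 447, 479 and 564 CPM in KO and at 418, 409.5 and 273 CPM in WT libraries at day 14. The KO values lay wholly above the WT values, as for 9.71% of tested genes, and the difference missed the threshold (0.44 ± 0.19, edgeR adjusted p = 0.212). At day 7 Lat stood at 584, 493, 628 and 667 CPM in KO and at 457, 445, 523 and 551 CPM in WT libraries, with overlap (0.26 ± 0.17, edgeR adjusted p = 0.347). All 3 WT libraries of day 14 lay below all 4 of day 7, as 13.8% of tested genes did, and the change was not called (-0.43 ± 0.18, edgeR adjusted p = 0.115). In KO it was -0.26 ± 0.18 (edgeR adjusted p = 0.419). With the length and GC trends of the libraries removed, Lat was called lower over time in WT (-0.83, edgeR adjusted p = 0.000125) and in KO.

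Lcp2 (ENSMUSG00000002699, chr11:34046920-34092295), which encodes the adaptor SLP-76, was not called by genotype, at 0.09 ± 0.21 at day 7 and 0.15 ± 0.24 at day 14 (edgeR adjusted p = 0.824 and 0.763). At day 7 it stood at 634, 643, 591 and 593 CPM in KO and at 480, 550.5, 566 and 716 CPM in WT libraries, the KO values lying inside the WT range. At day 14 the KO libraries stood at 534, 424 and 394 CPM, all below those of day 7, as for 10.2% of tested genes. The log2 fold changes over time were -0.45 ± 0.23 in KO and -0.51 ± 0.23 in WT (edgeR adjusted p = 0.23 and 0.141). The WT value turned on library 3. Lcp2 stood at 261, 389 and 572 CPM in the WT day 14 libraries, and without the last it was called lower (-0.83, edgeR adjusted p = 0.00953).

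Plcg1 (ENSMUSG00000016933, chr2:160731300-160775760), the enzyme that splits membrane lipid into second messengers, had the member set's biggest genotype difference at day 7. It stood at 348, 266, 170.1 and 98.0 CPM in KO and at 741, 637, 535 and 461 CPM in WT libraries. The groups did not overlap, with KO lower, as for 12.9% of tested genes, and the means were 220.5 ± 109 and 593 ± 122 CPM (SD, n = 4 each). The log2 fold change was -1.43 ± 0.43, which edgeR did not call (adjusted p = 0.154). DESeq2 called it (adjusted p = 0.0445), and so did limma-voom with sample weights (adjusted p = 0.00063).

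At day 14 Plcg1 stood at 174, 370.3 and 128 CPM in KO and at 644, 754 and 232 CPM in WT libraries (-1.28 ± 0.50, edgeR adjusted p = 0.169). WT library 3 lay inside the KO range, and without it Plcg1 was called lower (-1.64, edgeR adjusted p = 0.0267). Over time its log2 fold change was 0.02 ± 0.46 in KO and -0.13 ± 0.46 in WT (edgeR adjusted p = 0.984 and 0.876).

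Plcg1 has the longest coding sequence of the members (3906 bases), and the libraries differed in a trend of level with coding length. The slope of a library's log2 level on coding length, per doubling, was -0.031, 0.016, -0.171 and -0.366 in the KO day 7 libraries and 0.269, 0.275, 0.154 and 0.066 in the WT day 7 libraries. At day 14 it was -0.142, -0.004 and -0.321 in KO and 0.112, -0.016 and 0.159 in WT libraries. WT library 3, with 232 CPM of Plcg1, had the slope of 0.159. The slope on coding GC, per 10 points, was 0.472, 0.986 and -0.471 in the WT day 14 libraries. It was -0.363, 0.266 and 0.05 in the KO day 14 libraries. With the length and GC trends removed, the Plcg1 difference was -0.87 at day 7 and -0.71 at day 14 (edgeR adjusted p = 0.165 and 0.207). In addition, 379 of its coding bases overlap exons of Zhx3 on the other strand. The strandedness of counting is not given. Zhx3 stood at 7.77 ± 2.97 CPM in KO and 9.68 ± 1.08 CPM in WT at day 7. The part of library trend and overlap in the Plcg1 values was not tested beyond this.

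**Figure D3:**
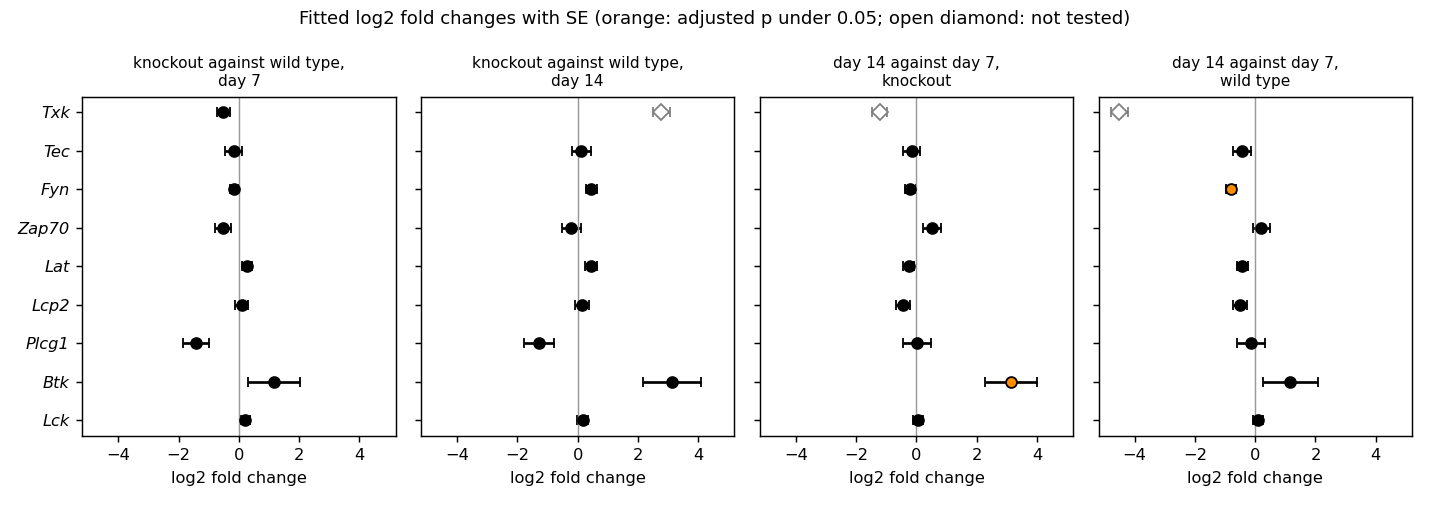
Log2 fold changes with SE of the 7 genes, Btk and Lck in 4 comparisons (genotype at day 7 and at day 14, then day 14 against day 7 in KO and in WT). Orange points passed the edgeR test (Fyn in WT over time, Btk in KO over time), and open diamonds are the Txk values given without a test.

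Counted together, 0 of 7 members were called by genotype at day 7, where 0.0949% of all tested genes were called, and 23.4% had an unadjusted p under 0.05. Among the members, Txk and Plcg1 had such a p (0.0323 and 0.00528). Of the 6 members other than Txk, 0 were called by genotype at day 14 (background 1.42%; unadjusted p under 0.05 for Fyn, Lat and Plcg1, at 0.0259, 0.04 and 0.0225, and for 21.7% of all genes). The interaction called 0 of the 6 (background 0.0863%), and its unadjusted p was under 0.05 for Fyn (0.0257) and for 7.97% of all genes. Over time 0 of the 6 were called in KO (background 15.5%), where 27.1% of all genes and 0 of the 6 had an unadjusted p under 0.05. In WT 1 was called, lower (background 20.5%, and 7.33% for lower calls), and Fyn, Lat and Lcp2 had an unadjusted p under 0.05 (0.000377, 0.033 and 0.0441), as did 32.5% of all genes. The median log2 fold change of the 6 was -0.16 at day 7 and 0.13 at day 14 by genotype, and -0.18 in KO and -0.44 in WT over time. DESeq2 called 1 member at day 7 and 0 of the 6 at day 14.

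Levels of different genes can be compared per length, with the deposited RPKM. Lat was highest of the 7 in all 14 libraries, at 324 ± 28.2 RPKM in KO and 276 ± 22.9 RPKM in WT at day 7. Txk ranked 6 and Tec 7 in every day 7 library. At day 7 Txk stood at 9.57 ± 2.54 RPKM in KO and 13.9 ± 2.7 RPKM in WT, and Tec at 5.05 ± 1.3 RPKM in KO and 5.8 ± 0.917 RPKM in WT. At day 14 Txk stood at 4.56 ± 1.1 RPKM in KO and 0.656 ± 0.0846 RPKM in WT, and Tec at 5.05 ± 1.96 RPKM in KO and 4.58 ± 1.9 RPKM in WT. Txk was then the lowest of the 7 in all 3 WT libraries and in 1 KO library. Fyn stood above Lcp2 in 7 of the 8 day 7 libraries, and at day 14 the order from Fyn to Plcg1 changed between libraries.

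Btk (ENSMUSG00000031264, chrX:134542336-134583570) was scarce but rose over time in KO cultures. It had 207, 208 and 257 reads in the KO day 14 libraries and 13, 26, 31 and 16 reads in those of day 7 (3.13 ± 0.87, edgeR adjusted p = 0.024). That call was lost without any 1 of 6 of these 7 libraries (KO day 14 library 1 being the exception; highest adjusted p 0.0729) and with a term for the run. WT day 14 libraries held 3, 0 and 72 reads of Btk, so the genotype difference there was not called (3.12 ± 0.96, edgeR adjusted p = 0.1). It turned on library 3, without which it was called (6.91, edgeR adjusted p = 0.000338). DESeq2 called it with all libraries (3.15, adjusted p = 0.016).

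B cell markers summed to at most 0.603 CPM in any day 14 library, with Ms4a1 at 0 reads in both genotypes. The 6 mast cell and basophil markers summed to 22.5 to 129.8 CPM in KO and 1.07 to 5.69 CPM in WT at day 14. At day 7, when Btk was scarce, they summed to 47.0 to 82.2 CPM in KO and 30.5 to 64.6 CPM in WT. Over time in KO, Kit was called higher, and the log2 fold changes of Kit and Cpa3 were from -0.31 to 2.62. By genotype at day 14, Kit and Cpa3 were called higher in KO (6.63 ± 1.11 and 3.80 ± 0.77, edgeR adjusted p = 0.0115 and 0.027). Ms4a2, Mcpt4 and Mcpt8 had 0 reads in both genotypes. Fcer1a went the other way and did not enter the tests. Its total was 0 reads in KO and 3 in WT at day 14, and 5 in KO and 26 in WT at day 7. The part of the B cell, mast cell and basophil markers in the Btk values was not tested. Bmx, the last Tec family gene, had 0 reads in all 14 libraries. Over time in WT the Btk value also turned on library 3 (1.17 ± 0.91 with it, edgeR adjusted p = 0.407, and -2.61 without it). Lck, the Src family kinase that opens the cascade, differed by 0.21 ± 0.15 at day 7 and 0.16 ± 0.17 at day 14 (edgeR adjusted p = 0.398 and 0.614).

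The wider pathway was read through lists chosen with earlier results of these data known. By genotype at day 7, 0 genes were called in any of them, and at day 14 the call outside the Tec family list was Spry1, an inhibitor of receptor kinase signalling. Spry1 stood at 44.0 ± 27.3 CPM in KO and 12.8 ± 3.08 CPM in WT with overlap (1.78 ± 0.41, edgeR adjusted p = 0.0447). The call was lost under many alternatives, including without WT day 14 library 1 or 2 or KO day 14 library 2 or 3 (adjusted p of at most 0.168) and without most of the day 7 libraries taken singly. Fitting the compared libraries alone gave an adjusted p of 0.454. Receptor chains (Cd3d, Cd3e, Cd3g, Cd247 and Cd4) had a median log2 fold change of 0.12 at day 7 and 0.14 at day 14, against -0.01 and 0.01 over all genes. Its members differed in direction. At day 7 Cd3d (0.88 ± 0.27) and Cd3g (0.66 ± 0.26) lay higher in KO without overlap, as 9.27% of tested genes did, and neither was called (edgeR adjusted p = 0.154 and 0.164). At day 14 Cd4 lay lower in KO without overlap, as 5.25% of tested genes did, just short of the threshold (-0.94 ± 0.22, edgeR adjusted p = 0.0524). Over time 1 of the 5 fell in KO, Cd4 (-0.85 ± 0.21, edgeR adjusted p = 0.0132), a call lost without KO day 14 library 3 (edgeR adjusted p = 0.0646), and 0 were called in WT.

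The lists are read over time against 15.5% of all tested genes called in KO and 20.5% in WT. Of 26 adaptors and enzymes, 2 rose and 3 fell in KO, and 1 rose and 3 fell in WT, which is near those shares. Plcg2, the phospholipase better known in B cells, was called higher in both (2.61 ± 0.37 in KO and 1.54 ± 0.36 in WT, edgeR adjusted p = 0.000376 and 0.00729). The adaptor gene Fyb fell in both (-1.46 ± 0.26 in KO and -1.39 ± 0.26 in WT, edgeR adjusted p = 0.00152 and 0.00158). The fallers counted include Pdk1, which in mouse names a pyruvate dehydrogenase kinase of mitochondrial metabolism and not the signalling kinase gene Pdpk1 (-0.91 ± 0.28 in KO and -2.25 ± 0.29 in WT, edgeR adjusted p = 0.0389 and 0.000129). Its KO call was lost without most single libraries (adjusted p of at most 0.168). Nck2 fell in WT (-0.85 ± 0.19, edgeR adjusted p = 0.00601).

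Of 7 tested Src and Syk family kinases, 3 rose in KO (Syk, Lyn and Src) and 2 in WT (Lyn and Src), with Fyn falling in WT, against the same 15.5% and 20.5% of all genes. The WT call of Src was lost without WT day 7 library 3 (edgeR adjusted p = 0.0514). The KO call of Src was lost without KO day 14 library 2 (2.12, edgeR adjusted p = 0.115) and that of Lyn without KO day 14 library 1 (1.06, edgeR adjusted p = 0.0572). All of these risers were scarce, Lyn reaching 3.61 ± 2.89 CPM in KO and 4.18 ± 1.28 CPM in WT at day 14, and Syk and Lyn are best known from B and myeloid cells. The myeloid and dendritic markers summed to 16.3 to 27.6 CPM in KO and 10.2 to 31.6 CPM in WT at day 14, against 3.53 to 9.65 CPM in KO and 1.92 to 3.93 CPM in WT at day 7, with Itgam and Itgax at 0 reads throughout. Most of the KO sum at day 14 was Adgre1 (18.7 ± 5.71 CPM, against 1.39 ± 0.425 CPM at day 7). In KO, Adgre1 and Cd68 were called higher over time and Fcgr3 lower. The 5 tested markers there had a median log2 fold change of -0.91. In WT, Adgre1, Cd14 and Cd68 were called higher, with a median of 2.77. The part of the myeloid and dendritic markers in these kinase values was not tested.

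Of 24 tested genes that restrain proximal signalling, 3 rose and 3 fell in KO, and 4 rose and 6 fell in WT, against 15.5% of all genes called in KO and 20.5% in WT. Ubash3b, a phosphatase gene, fell in both (-1.18 ± 0.23 in KO and -1.46 ± 0.23 in WT, edgeR adjusted p = 0.00321 and 0.000579). Dgka, which consumes the second messenger diacylglycerol, fell as well (-0.91 ± 0.19 in KO and -1.07 ± 0.19 in WT, edgeR adjusted p = 0.00497 and 0.00135). Of 31 genes of second messengers and downstream branches, 1 rose in KO, Nfkb1 (1.52 ± 0.31, edgeR adjusted p = 0.00386). In WT 1 rose, the calcineurin subunit gene Ppp3cc (0.87 ± 0.17, edgeR adjusted p = 0.00201), and 4 fell, both counts below the same shares. With a term for the sequencing run, the KO calls of Cd4, Fyb, Pdk1, Syk, Lyn, Src, Ubash3b, Dgka and Nfkb1 were lost. Their log2 fold changes were then -0.55 for Cd4, -1.41 for Fyb, -1.04 for Pdk1, 3.35 for Syk, 1.70 for Lyn, 3.25 for Src, -1.02 for Ubash3b, -0.61 for Dgka and 1.42 for Nfkb1.

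Genes whose pattern over the 14 libraries was most like that of Txk were chosen by the smallest root mean square difference of centred log2 CPM. Among the 8 nearest were Gramd3 (0.41), P2ry1 (0.45), Ms4a6b (0.54), Slc23a4 (0.55), Elovl7 (0.58), H2-Ob (0.65) and Gpr183 (0.68), against a median of 1.75 over all tested genes. The other members were farther off, from Fyn at 1.41 and Tec at 1.53 to Plcg1 at 1.99. As a description, P2ry1, a purinergic receptor gene, stood at 33.4 ± 11.4 CPM in KO and 7.56 ± 1.31 CPM in WT at day 14, and at 86.1 ± 17.2 CPM in KO and 86.6 ± 9.68 CPM in WT at day 7. Gpr183, an oxysterol receptor gene, stood at 76.2 ± 27.0 CPM in KO and 26.5 ± 8.93 CPM in WT at day 14, and at 509 ± 45.8 CPM in KO and 538 ± 55.0 CPM in WT at day 7. Slc23a4 was read only 10 times in KO and 1 time in WT at day 14.

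**Figure D4:**
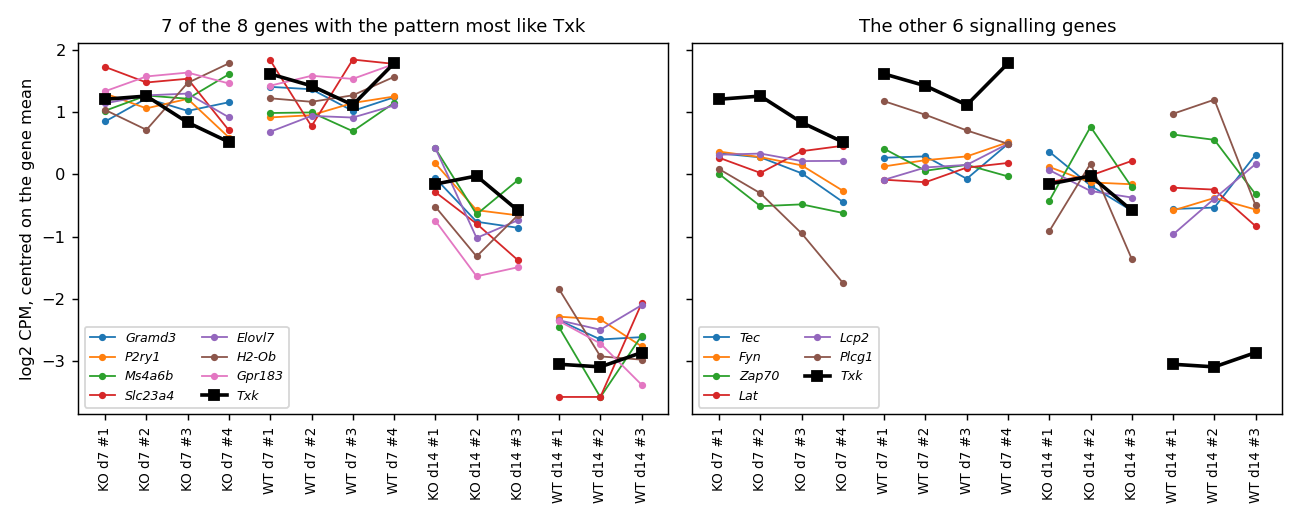
Log2 CPM centred on each gene's mean (y axis) in the 14 libraries (x axis; d7 and d14 are the days, # the replicate number) for 7 of the 8 genes most like Txk (left) and the other 6 signalling genes (right), with Txk in black in both. Lines join libraries of one group and mark no order, and in WT at day 14 Txk lies lower than each of the other 6 signalling genes.

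A list of naive T cell markers, among them Ccr7, Lef1 and Tcf7, was read beside Txk. Of its 7 markers, 6 were called lower over time in KO and 6 in WT. In either direction, 15.5% of all tested genes were called in KO and 20.5% in WT. The median log2 fold changes of the list were -2.30 and -2.48, against 0.02 and 0.00 over all genes. Their summed level was 1103 to 2271 CPM in KO and 852 to 2181 CPM in WT at day 14, and 5909.6 to 6965 CPM in KO and 7039 to 7615 CPM in WT at day 7. The genotype difference of the list at day 14 had a median of -0.06, against 0.01 over all genes. The markers differed, running from -0.77 to 1.44, with 3 above 0 and 4 below. The part of these markers in the Txk values was not tested.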

How the data were processed

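RNA-seq libraries were deposited as 1 table per library. Each holds whole-number counts of reads per gene and RPKM values, made by the authors, per the file headers. Reads were aligned with GSNAP 2013-11-01 and build GRCm38, as the submitters' processing notes name them. No source here states the counting tool, its strandedness or its annotation. GENCODE vM21 gave symbols (22457 of 22598 identifiers) and GRCm38 coordinates, and RefSeq gave promoters. The counts were tested with edgeR 4.0.16 in R 4.3.3 (filterByExpr, TMM, robust quasi-likelihood fit, a mean for each of the 4 groups, all 14 libraries fitted together). Benjamini-Hochberg adjustment was over 11591 genes, with a threshold of 0.05. The common BCV, the spread between libraries of a group beyond counting noise, was 0.354. The SE is the fold change divided by the square root of F. CPM uses TMM-scaled totals. Sequencing runs are not labelled and were inferred from the lane and NXG numbers in the names of the deposited tables. Libraries with the smallest difference between these numbers were taken as the first run and the rest as the second. Txk to Tec ratios use CPM with 0.5 reads added. Members and lists were chosen with earlier results of these data known. Named genes were the members, the Tec family and Lck, the nearest 2 tested genes on each side, up to 4 called genes per list and comparison, and the 8 most Txk-like genes. Some of these genes are not reported here. Zhx3, Kit, Cpa3 and cell type markers were named beside results they touch, after their values were seen. Simulated counts were used to check the fit. No pair of libraries in a group agreed within sampling noise (smallest chi-square per degree of freedom 21.7). Alternatives were other scaling factors, filters and libraries, DESeq2 1.42.0, limma 3.58.1 voom, a replicate block, a run term, a GC and coding length offset (splines with 5 degrees of freedom) and leaving out each library.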

Additional observations from a re-analysis of the deposited data

How the results depend on the processing

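The number of members called moved in few settings. At day 7 it was 0, 1 with DESeq2 (Plcg1) and 4 with limma-voom with sample weights (Plcg1, Zap70, Lat and Txk). By genotype at day 14 it was 0 of 6, 1 with limma-voom with sample weights and 1 without WT day 14 library 3 (Plcg1 both times), so leaving out libraries gave 0 to 1. Over time in WT it was 1 (Fyn), 3 with limma-voom with sample weights (Lcp2, Fyn and Tec), 2 with the GC and coding length offset (Fyn and Lat) and 1 to 2 when leaving out libraries, the 2 being Lcp2 and Fyn without WT day 14 library 3. Over time in KO it was 0, and 1 with the GC and coding length offset (Lat). The cause of these moves was not tested. Limma-voom with sample weights called 5075 genes at day 7 in all, against 11 in edgeR and 512 in DESeq2. Upper quartile scaling put the median log2 fold change of all genes at 0.106 over time in WT and at 0.091 by genotype at day 7, against 0.00 and -0.012 with TMM. At day 14 the fit of only the compared libraries called 0 genes in all, against 165.

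No called log2 fold change of a member lost its call or changed sign, and 12 of 868 values over the alternatives gained a call. Among the other named genes 81 lost a call and 10 gained one. Btk over time in WT was 1.17, and -2.61 to 1.75 when leaving out libraries, with the -2.61, a turn of direction, coming without WT day 14 library 3 (edgeR adjusted p = 0.0205).

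The day 7 Txk to Tec ratio differed by -0.33, and by -0.37 to -0.30 without each library (exact permutation p = 0.0571, the smallest that 3 against 4 allows). Replicate numbers shared by the groups were not treated as pairs in the main fit. Correlations of same-numbered deviations ran from -0.456 to 0.417. They were not compared with those of other pairs, so whether libraries were paired cannot be said. With the replicate block the difference was -0.33 (exact permutation p = 0.125, the smallest that 4 pairs allow), and the block left 0, 0, 0, 1 and 0 members called in the 5 comparisons.

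Depth limits Txk little in WT at day 14 (62 to 85 reads) and Btk more (0 to 72 reads).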
